A study of Mus musculus with 6 samples.

Results

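The genes described here are the interleukins, the tumour necrosis factor (TNF) superfamily, the colony-stimulating factors and the genes of LIF and oncostatin M, with their receptors, in the trachea of the mouse embryo. They were chosen by gene symbol: every probe of the array whose symbol starts with Il, Tnfsf or Tnfrsf and a number, and 14 further symbols of the same families. The choice gave 194 probes with 128 symbols. After old symbols were updated these were 127 genes, of 17850 genes on the array. Of the 127, 34 are interleukin ligands, 42 interleukin receptors and co-receptors, 16 TNF superfamily ligands, 25 TNF receptor superfamily members and 7 colony-stimulating factor, LIF and oncostatin M genes. The remaining 3 carry matching symbols but are none of these: Psmg2, a proteasome assembly chaperone, Tmed1, a vesicle cargo protein, and Il4i1, a secreted amino acid oxidase.

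RNA of whole tracheas was measured on Illumina bead arrays at stage E18.5 in the C57BL/6 background. The 3 control pools were Sox9+/+ and the 3 mutant pools Sox9-/-, with Sox9 missing in the mesenchyme and no cartilage rings in the trachea according to the labels, which do not name the Cre driver or the cells it reaches. Each pool held 3 tracheas, 9 a group, from 7 pregnant females combined at random, so an array shows the mean of 3 embryos and p-values measure the spread between pools. The study's title names inflammatory genes among the subjects of the comparison.

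Interleukins and TNF ligands are signals between cells, released or shown on the cell surface, and many are made at low levels until tissue is infected or damaged. Class I and II cytokine receptors signal through Janus kinases and STAT proteins, the interleukin-1 and interleukin-17 receptors through adaptors to NF-kB, and TNF receptors through TRAF adaptors or death domains. In airways the epithelium carries many of the receptors, and interleukin-13 is known there for driving mucus production. In the skeleton the TNF ligand RANKL (Tnfsf11), its receptor RANK (Tnfrsf11a) and the decoy osteoprotegerin (Tnfrsf11b) set the formation of osteoclasts.

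Of 55 member genes measured above background, 3 rose and 2 fell in the mutant pools. Those that rose were Tnfsf13b, which encodes the B cell survival factor BAFF, Il13ra1, a receptor chain for interleukin-13, and Tnfrsf18. Tnfrsf18 encodes GITR, a costimulatory receptor of T cells. It was detected on no control array and entered the test through the mutant arrays alone. Those that fell were Tnfrsf11b, which encodes osteoprotegerin, and Il16, which encodes a chemoattractant for CD4+ cells. The calls used limma with Benjamini-Hochberg adjustment over 10831 genes at 0.05, of which 5.52% passed, 2.16% higher and 3.36% lower in the mutant pools.

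For the genes that rose, the 250 bases before the RefSeq transcription start (build GRCm38.p6) are shown, because these genes share a direction. Capitals mark a match to a motif of a factor downstream of cytokine receptors.
Tnfsf13b, chr8:10006383-10006632, plus strand: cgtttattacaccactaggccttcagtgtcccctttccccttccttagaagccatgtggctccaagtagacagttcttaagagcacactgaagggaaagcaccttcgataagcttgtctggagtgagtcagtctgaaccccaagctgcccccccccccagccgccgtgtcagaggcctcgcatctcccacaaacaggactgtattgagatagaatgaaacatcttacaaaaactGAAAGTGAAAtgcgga
Il13ra1, chrX:36111858-36112107, plus strand: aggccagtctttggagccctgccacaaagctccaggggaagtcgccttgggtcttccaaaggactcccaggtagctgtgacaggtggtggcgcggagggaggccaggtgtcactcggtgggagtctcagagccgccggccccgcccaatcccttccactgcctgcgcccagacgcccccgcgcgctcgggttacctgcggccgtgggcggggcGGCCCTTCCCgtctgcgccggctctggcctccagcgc
Tnfrsf18, chr4:156026072-156026321, plus strand: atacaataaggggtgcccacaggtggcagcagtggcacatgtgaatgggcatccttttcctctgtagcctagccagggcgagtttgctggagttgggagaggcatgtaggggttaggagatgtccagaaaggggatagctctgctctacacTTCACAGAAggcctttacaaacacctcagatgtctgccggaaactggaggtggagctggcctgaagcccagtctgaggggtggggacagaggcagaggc
The capitals are an interferon-stimulated response element core in Tnfsf13b at -16 to -7, an NF-kB match in Il13ra1 at -37 to -28 and a STAT match in Tnfrsf18 at -99 to -91, counted from the start site. The other RefSeq start of Tnfsf13b, upstream of this one, had no match. The letters searched on both strands were GAAA, NN and GAAA in a row for the interferon element, GGGA, NNNN and CC in a row for NF-kB, TTCNNNGAA for STAT and AACAAT for SOX factors. They were found in 2.98%, 17.6%, 7.02% and 9.42% of 32851 RefSeq promoters of this length. Among the 43 tested member genes with a promoter entry, 1, 19, 5 and 4 held these motifs in that order. Counted by gene and not by promoter, these were 2.33%, 44.2%, 11.6% and 9.30% of the members. In the 8333 tested genes with an entry the shares were 3.06%, 26.3%, 7.06% and 6.66%, and base composition was not compared. Such a match describes letters in a window and not a binding site. Of the genes that fell, Il16 has 3 RefSeq starts, of which 1 held NF-kB letters, and Tnfrsf11b has no entry in the table.

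Before the members are described, the libraries need a short account. Median raw intensity was 183 to 198 on the control arrays and 205 to 211 on the mutant arrays, and 14468 to 14726 probes were detected per array. All 6 arrays lay on 1 slide with the controls in the first positions, so that slide position cannot be told apart from group. The probe for Sox9 was above background on 0 control arrays and 3 mutant arrays, with mutant over control at least 1.12-fold, which goes against the label. It lay near background, with log2 means of 4.58 and 5.44, and entered the test through the mutant arrays alone. Whether this probe lies in the deleted part of the gene was not tested. The pools are therefore called by their labels, control and mutant, throughout, and every direction below rests on those labels. Of the other markers, 7 of 9 tested cartilage genes fell in the mutant pools, whose label gives no cartilage rings. The summed level of the 9 (linear normalized intensity) was 11628 to 13626 in control and 1394 to 1493 in mutant pools. All 9 epithelial genes on the array were measured, with sums of 58137 to 60439 in control and 62755 to 63473 in mutant pools. Thyroid markers stood high in a control pool, with 8.13, 13.28 and 10.86 for Tg on the log2 scale in control pools and 8.31, 9.19 and 7.74 in mutant pools. Of 3 tested distal lung markers 1 rose, Sftpb, by 2.32 with a standard error of 0.40 (adjusted p 0.0284), and all 3 lay above 0. The part of distal lung tissue in the differences of the members was not tested. S100a8, a neutrophil gene, was 12.63 in mutant pool 3 against 9.46 and 9.28 in the other mutant pools. In whole tissue, fewer cells of a type and less RNA per cell cannot be told apart.

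Most of the ligands were not above background. A gene was tested when 3 or more of the 6 arrays gave a probe of it a detection p under 0.05, which 55 of the 127 members did (43.3%) against 60.7% of all genes on the array. In the interleukin ligands 8 of 34 were tested, in the TNF ligands 2 of 16, in the interleukin receptors 23 of 42 and in the TNF receptors 15 of 25. Of the 7 colony-stimulating factor, LIF and oncostatin M genes 4 were tested. All 6 arrays detected 40 members, 15 of them interleukin receptors and 14 TNF receptors, but 5 interleukin ligands and 0 TNF ligands. For 53 members no probe was detected on any array, and 19 more reached 1 or 2 arrays.

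**Figure D1:**
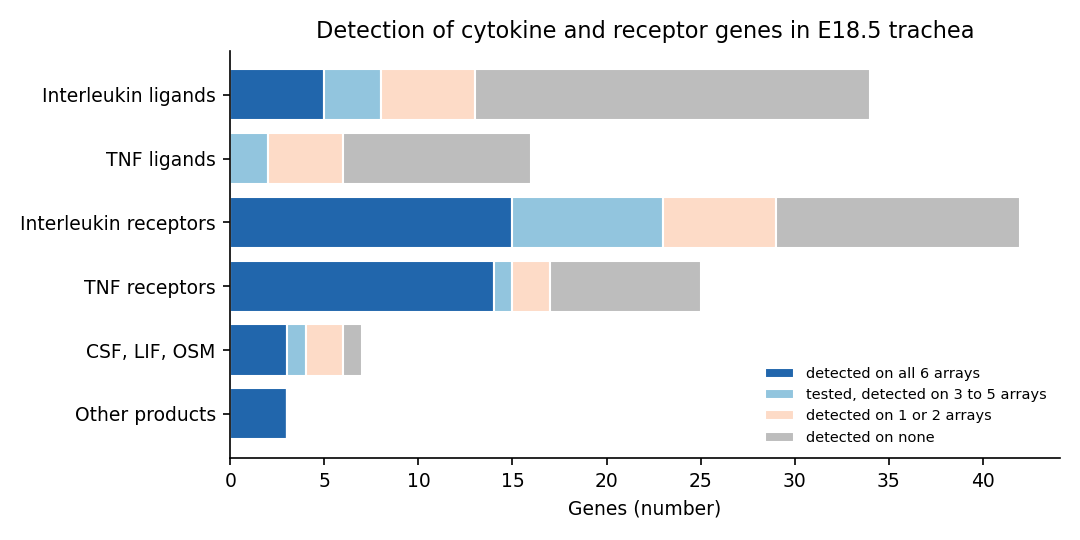
Number of member genes in each role group (x axis), split by the number of arrays on which a probe was detected (colours); of 34 interleukin ligands 21 were detected on no array, and of 25 TNF receptors 14 were detected on all 6.

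Several classical inflammatory cytokines were among those not detected. Tnf itself had a detection p of 0.223 to 0.545 over the 6 arrays and raw intensities of 146 to 168. Il6, an acute inflammatory cytokine, had a detection p of 0.093 to 0.733, and Il1a, an alarm signal of damaged epithelium, 0.397 to 0.855. Il10, a dampening cytokine, Il4, the type 2 helper cytokine, and Il17a, the neutrophil-recruiting one, were likewise detected on 0 arrays. The same was true of Csf2, the gene of GM-CSF. Csf3, which encodes the granulocyte factor G-CSF, passed on 2 mutant arrays, with log2 values of 5.22, 5.16 and 5.20 in control and 5.08, 5.65 and 5.90 in mutant pools, and was not tested. Osm, which encodes oncostatin M, also passed on 2 mutant arrays. These genes have an upper bound near background and no measured difference.

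The 5 calls are 9.09% of the members tested. An unadjusted p below 0.05 was found for 22 members (40%) and for 25.2% of all genes. In 24 members (43.6%) the groups did not overlap, 11 higher and 13 lower in the mutant pools, against 31.4% of all genes. The median difference was -0.05 in the members and 0.01 in all genes. The median size of the difference, regardless of sign, was 0.23 in the members and 0.17 in all genes. Tested members were dim, with a median level of 6.81 where that of all genes was 8.76, and 14 members lay above the latter. At 2-fold or more stood Tnfsf13b and Tnfrsf11b alone among those tested, by the fitted difference.

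**Figure D2:**
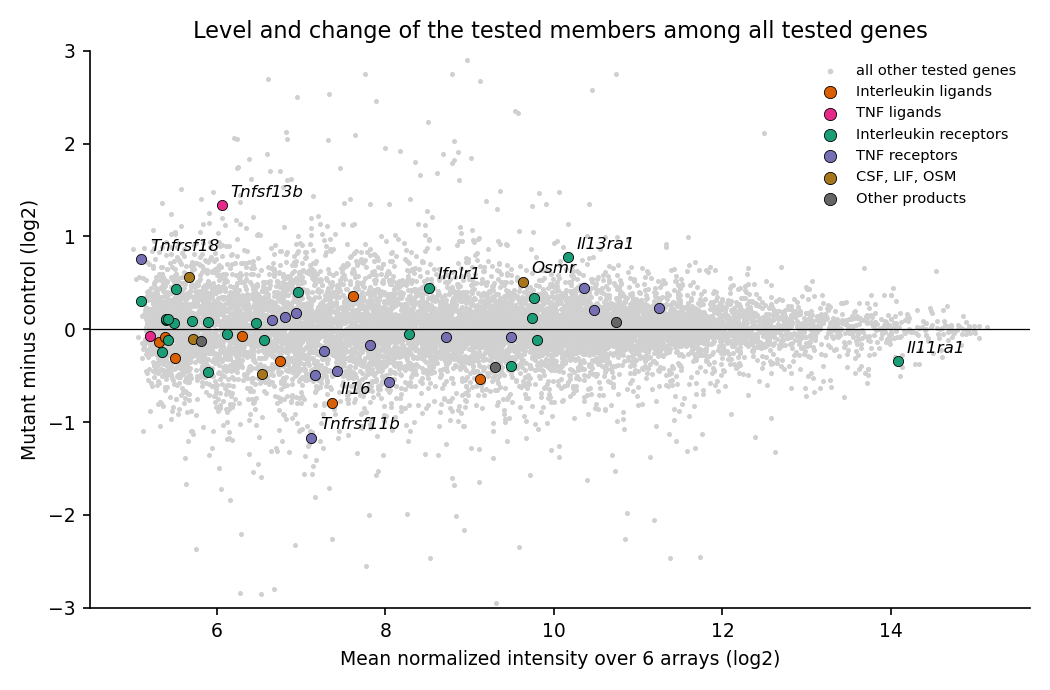
Log2 difference, mutant minus control (y axis), against mean log2 normalized intensity over the 6 arrays (x axis), for the members by role group (coloured) and all other tested genes (grey); 10 genes outside -3 to 3 are not drawn, and 14 of the 55 members lie right of the all-gene median level of 8.76.

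Tnfsf13b was the TNF ligand that rose. BAFF, its product, is a survival signal for B cells made mostly by myeloid and stromal cells. Its log2 normalized intensities were 5.74, 5.23 and 5.20 in the control pools and 6.54, 6.85 and 6.79 in the mutant pools. The groups did not overlap, and a probe detected on 1 control array was detected on all 3 mutant arrays. The means were 5.39 ± 0.30 and 6.73 ± 0.17 (SD, n = 3 each), a log2 difference of 1.34 with a standard error of 0.17 (adjusted p 0.0143), or 2.53-fold. A second probe of Tnfsf13b gave 5.25, 5.27 and 4.92 in control and 6.40, 6.86 and 6.61 in mutant pools. That probe was detected on 0 control arrays and 3 mutant arrays, entered through the mutant arrays alone and is no independent support. Raw intensities were 181, 167 and 178 against 252, 268 and 270. Without background correction the difference was 0.43, and the call was lost without control pool 2 or mutant pool 2 (adjusted p up to 0.0708).

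No receptor of BAFF was seen. Tnfrsf13b, Tnfrsf13c and Tnfrsf17, which encode TACI, the BAFF receptor and BCMA, were detected on 0 arrays, and the B cell markers Cd79a and Ms4a1 did not pass the detection filter. Another B cell marker, Cd79b, was detected on all 6 arrays and differed by -0.006 (adjusted p 0.988). Of 12 tested macrophage markers 2 rose, Aif1 by 0.58 and Ms4a7 by 0.55 on the log2 scale, and 6 of the 12 lay above 0 with a median of 0.04. Cd163, a scavenger receptor of resident macrophages, was detected on 3 control and 0 mutant arrays and entered the test through the control arrays alone. It was at least 2.003-fold lower in the mutant pools but did not pass (adjusted p 0.0994). Mrc1, the mannose receptor, differed by -0.29 (adjusted p 0.129). In the other direction Cd14 differed by 0.53 (adjusted p 0.0619) and did not pass either. An unadjusted p below 0.05 was found for 5 of the 12, against 25.2% of all genes. The summed level of the 12 was 11828 to 14001 in control and 13860 to 15359 in mutant pools. Their part in the rise of Tnfsf13b was not tested.

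The other tested TNF ligand, Tnfsf11, encodes RANKL. It gave 4.83, 5.39 and 5.48 in control and 5.15, 4.97 and 5.38 in mutant pools, near background, with detection on 2 control arrays and 1 mutant array. The values overlap, and the difference was -0.07 with a standard error of 0.20 (adjusted p 0.853), with its sign turned without mutant pool 2. Fasl, the death ligand, and Tnfsf10, which encodes TRAIL, were detected on 0 arrays, and Lta and Ltb, the lymphotoxins of lymphoid organ formation, on 1 array each.

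Among the TNF receptors Tnfrsf11b fell. Osteoprotegerin is secreted, binds RANKL and keeps it from RANK. The control pools gave 7.50, 7.79 and 7.84 and the mutant pools 6.43, 6.44 and 6.75 on the log2 scale. Every mutant pool lay below every control pool. The means were 7.71 ± 0.18 and 6.54 ± 0.18 (SD, n = 3 each), a difference of -1.17 with a standard error of 0.14 (adjusted p 0.0113), or 2.25-fold lower. Raw intensities were 293, 326 and 367 against 245, 238 and 266, lower in the mutant pools although those arrays were brighter. Without background correction the difference was -0.58, and the call was lost only without mutant pool 2 (adjusted p 0.0586). Its partner receptor Tnfrsf11a gave 6.71, 6.76 and 6.34 in control and 6.78, 6.85 and 6.50 in mutant pools, overlapping, with a difference of 0.10 and a standard error of 0.15 (adjusted p 0.714). The fall of cartilage markers given above went along with that of Tnfrsf11b, and its part was not tested.

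Tnfrsf18, a costimulatory receptor of T cells, rose from values under the background. It gave 4.92, 4.65 and 4.62 in control pools, none detected, and 5.44, 5.31 and 5.71 in mutant pools, all detected. The mutant pools were at least 1.15-fold higher (fitted difference 0.76 with a standard error of 0.14, adjusted p 0.0326), the bound being set by the lowest detected signal on each control array. It entered the test through the mutant arrays alone, so its p-value was conditioned on the group in which it is high. In the fit with no detection filter, over 17850 genes, the adjusted p was 0.0429. That fit uses the same control values under the background and is no independent support. The other probe of Tnfrsf18 was detected on no array. The difference was 0.22 without background correction (adjusted p 0.0784), and the call was also lost without control pool 2 or control pool 3. Offset 50 (adjusted p 0.0505), trend and robust variance (0.052) and the pool number as a block (0.0767) lost the call as well. When a mutant pool was left out the probe no longer passed the filter. Of 10 lymphocyte markers 2 were tested, Cd79b with the values above and Cd3g. Cd3g, a T cell receptor chain, was detected on 1 control array and 3 mutant arrays. It differed by 0.74 with a standard error of 0.19 (adjusted p 0.073), a difference that includes undetected control values. The summed level of the 2 was 116 to 159 in control and 143 to 186 in mutant pools, and their part was not tested. The ligand gene Tnfsf18 was detected on 0 arrays.

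**Figure D3:**
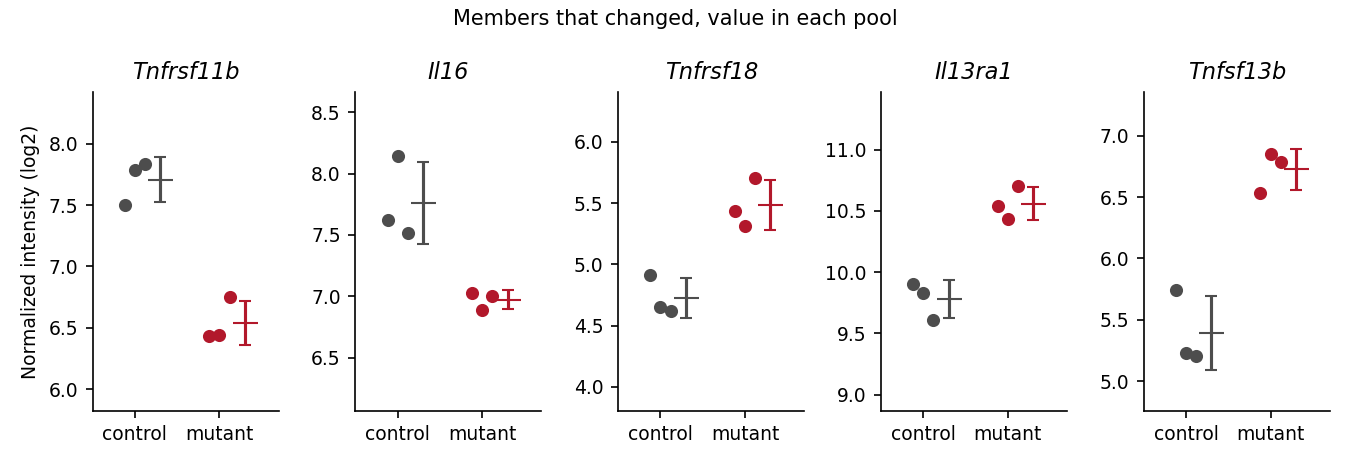
Normalized intensity (log2, y axis, a separate scale for each gene that spans the same number of units) of the 5 members that changed, with a point for each pool and the mean with its SD (n = 3) beside the points; in every gene the control and mutant pools do not overlap, and in Tnfrsf18 the control values lie below detection.

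The other TNF receptors did not pass. Tnfrsf12a, the receptor of the ligand TWEAK, gave 8.51, 8.45 and 8.01 in control and 7.68, 7.88 and 7.71 in mutant pools, a difference of -0.57 with a standard error of 0.15 (adjusted p 0.0772). Every mutant value was lower, while Tnfsf12, the gene of TWEAK, was detected on 0 arrays. Tnfrsf25, a death-domain receptor, gave 7.68, 7.59 and 7.68 against 7.49, 7.03 and 7.07, a difference of -0.45 with a standard error of 0.14 (adjusted p 0.107). Tnfrsf1a, the widely expressed TNF receptor, gave 7.48, 7.59 and 7.16 against 7.09, 7.09 and 6.56, a difference of -0.49 with a standard error of 0.18 (adjusted p 0.159), and its other kept probes gave -0.30 and -0.07. Tnfrsf1b, the other receptor for TNF, was detected on 0 arrays.

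A pair of TNF receptor genes had probes of opposite sign. Tnfrsf19, an orphan receptor known from epithelial progenitors, gave 11.18, 11.12 and 11.10 in control and 11.46, 11.32 and 11.30 in mutant pools with 1 probe (difference 0.23, adjusted p 0.171), and -0.39 with the other. Cd40, the receptor through which T cells activate antigen-presenting cells, gave 7.29, 7.53 and 7.34 against 7.09, 7.19 and 7.18 (difference -0.24, adjusted p 0.197), and 0.17 and 0.03 with its other probes. For these genes the files give no single direction. Of the 15 tested TNF receptors 1 rose, 1 fell, and 8 had an unadjusted p below 0.05, against 25.2% of all genes.

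Il13ra1 was the interleukin receptor that rose. Its product binds interleukin-13 and, with the interleukin-4 receptor chain, signals through STAT6. The control pools gave 9.90, 9.83 and 9.61 and the mutant pools 10.54, 10.43 and 10.71. The lowest mutant pool lay above the highest control pool by more than the spread within either group. The means were 9.78 ± 0.15 and 10.56 ± 0.14 (SD, n = 3 each), a difference of 0.78 with a standard error of 0.12 (adjusted p 0.0213), or 1.72-fold. The raw intensities were 986, 935 and 914 against 1787, 1629 and 1963, and without background correction the difference was 0.69. The call was lost without control pool 2, control pool 3, mutant pool 2 or mutant pool 3, with adjusted p up to 0.071.

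The partners of this chain were mostly at background. Il4ra, the shared interleukin-4 receptor chain, was detected on 1 array and Il13ra2, the decoy for interleukin-13, on 0 arrays. The ligand gene Il13 was detected on all 6 arrays, with 6.38, 6.36 and 6.29 in control and 5.97, 6.29 and 6.53 in mutant pools. Its values overlap, and the difference was -0.08 with a standard error of 0.15 (adjusted p 0.784). Mast cells are a known source of interleukin-13 in tissue. Of their 6 tested markers Mcpt4 rose by 1.74 with a standard error of 0.33 (adjusted p 0.0347), and all 6 lay above 0. Their summed level was 14322 to 18298 in control and 20860 to 24232 in mutant pools. Hdc made up most of that sum, with log2 means of 13.91 and 14.22, and did not pass (difference 0.31, adjusted p 0.285). The relation of these markers to the members was not tested.

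Several further interleukin receptors had groups that did not overlap and missed the threshold. Ifnlr1, the receptor chain for the interferon-lambda cytokines, gave 8.37, 8.25 and 8.26 in control and 8.70, 8.88 and 8.64 in mutant pools, a difference of 0.45 with a standard error of 0.10 (adjusted p 0.0525). A second probe of it gave 0.64, and 7 of 12 alternatives that kept all pools called it. Il1rap, the shared co-receptor of the interleukin-1 family, gave 6.77, 6.89 and 6.61 against 7.12, 7.10 and 7.26, a difference of 0.40 with a standard error of 0.11 (adjusted p 0.0773). Its 5 kept probes ran from -0.07 to 0.40 and differ in sign.

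The shared chain of the interleukin-6 family and a partner of it also missed the threshold. Il6st, which encodes gp130, gave 9.62, 9.65 and 9.79 in control and 9.51, 9.14 and 9.22 in mutant pools, a difference of -0.40 with a standard error of 0.12 (adjusted p 0.105). Il11ra1, the interleukin-11 receptor chain that pairs with gp130, gave 14.22, 14.31 and 14.25 against 14.07, 13.95 and 13.73, a difference of -0.35 with a standard error of 0.11 (adjusted p 0.114). Both genes had every mutant pool below every control pool, and neither passed. The mouse has near-identical copies of Il11ra1, so its probe may read more than 1 gene. Il11 itself was detected on 1 array. Of the 23 tested interleukin receptors 14 lay above 0, against 51.1% of all genes, with a median of 0.08 on the log2 scale. An unadjusted p below 0.05 was found for 6 of the 23, against 25.2% of all genes.

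Il16 was the interleukin ligand that fell. Its product is cut from a precursor and attracts CD4+ cells. The log2 values were 7.63, 8.14 and 7.51 in control and 7.03, 6.88 and 7.01 in mutant pools. The mutant pools lay close together below all control pools, while control pool 2 stood above the other controls. The means were 7.76 ± 0.34 and 6.97 ± 0.08 (SD, n = 3 each), a difference of -0.79 with a standard error of 0.17 (adjusted p 0.0484), or 1.73-fold lower. Raw intensities were 308, 381 and 321 against 295, 270 and 289, and without background correction the difference was -0.43. The call was lost when any of the 6 pools was left out, with adjusted p from 0.0651 to 0.154.

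Of the other interleukin ligands tested, 1 lay above 0 and 6 below, where 51.1% of all genes lay above 0. Il15, a growth factor for natural killer cells, gave 7.52, 7.54 and 7.27 in control and 7.73, 7.75 and 7.92 in mutant pools, a difference of 0.36 with a standard error of 0.11 (adjusted p 0.111). Its other kept probes gave 0.32 and 0.19. Il17d, a member of the interleukin-17 family, gave 9.45, 9.45 and 9.27 against 9.20, 8.77 and 8.60, a difference of -0.54 with a standard error of 0.16 (adjusted p 0.104), and -0.42 with a second probe. Il7, the lymphocyte growth factor made by stromal cells, gave 5.55, 5.78 and 5.66 against 5.23, 5.34 and 5.50, a difference of -0.31 with a standard error of 0.11 (adjusted p 0.145). The groups did not overlap in these genes, and none passed. The raw intensities of Il7 did overlap, with 175, 183 and 193 against 188, 188 and 198.

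Ligands released by activated inflammasomes were low or variable. Il18 gave 6.91, 7.31 and 6.56 in control and 6.50, 6.48 and 6.76 in mutant pools, a difference of -0.35 with a standard error of 0.19 (adjusted p 0.320). Il1b gave 5.52, 5.36 and 5.26 against 5.10, 5.65 and 4.97 (difference -0.14, adjusted p 0.686), detected on 2 control arrays and 1 mutant array. In both genes the groups overlap.

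In the colony-stimulating factor, LIF and oncostatin M genes 0 passed in limma, with 2 at an unadjusted p below 0.05, against 25.2% of all genes. Osmr, the receptor chain for oncostatin M, gave 9.20, 9.49 and 9.43 in control and 9.94, 9.70 and 10.03 in mutant pools, a difference of 0.51 with a standard error of 0.13 (adjusted p 0.0678). All mutant values were higher, and 4 of 12 alternatives that kept all pools called it. Csf1, the macrophage growth factor, gave 6.68, 6.91 and 6.75 against 6.52, 6.37 and 6.01, a difference of -0.48 with a standard error of 0.15 (adjusted p 0.107). Before correction and normalization its groups overlapped, with raw intensities of 224, 239 and 249 against 251, 234 and 220. Lif gave 4.94, 5.23 and 6.00 against 6.28, 5.59 and 5.99, overlapping, with a difference of 0.57 and a standard error of 0.30 (adjusted p 0.287). Lifr, the receptor that joins LIF to gp130, differed by -0.11 (adjusted p 0.661).

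**Figure D4:**
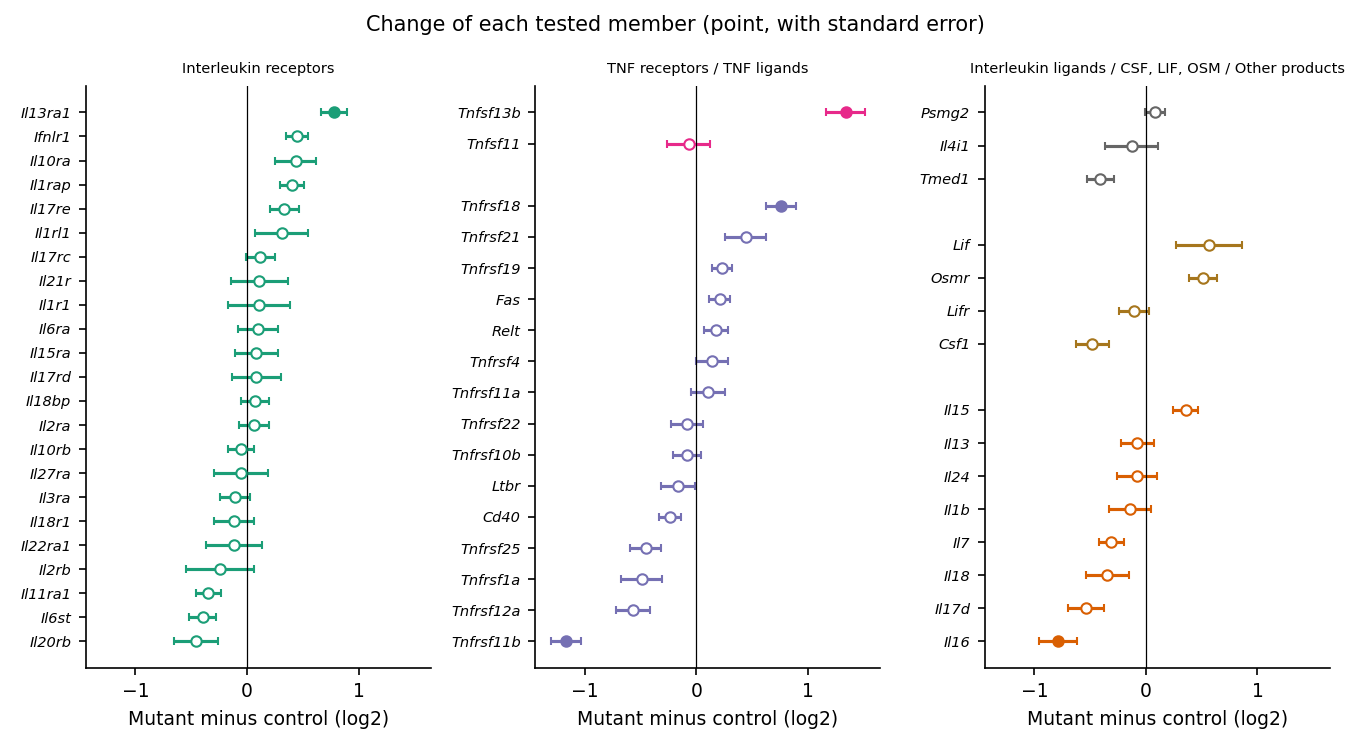
Log2 difference, mutant minus control (x axis), of each of the 55 tested members with its standard error, by role group; filled points passed the adjusted threshold, and the differences run from -1.17 for Tnfrsf11b to 1.34 for Tnfsf13b.

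The number of calls turned on single pools. Without control pool 1 or mutant pool 1 it was also 5, but not the same 5. Without control pool 1 Tnfrsf21 took the place of Il16, and without mutant pool 1 Il17d and Tnfrsf25 took the places of Il16 and Tnfrsf18. Without control pool 3 or mutant pool 3 it was 2, without control pool 2 it was 1 (Tnfrsf11b), and without mutant pool 2 it was 0 in limma, with 16 members at an unadjusted p below 0.05. The share of all genes called moved too, to 0.789% without mutant pool 2. The sign of each of the 5 differences held in every fit that gave a value, and none of the 5 kept its call in all 6. Il16 kept it in none.

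**Figure D5:**
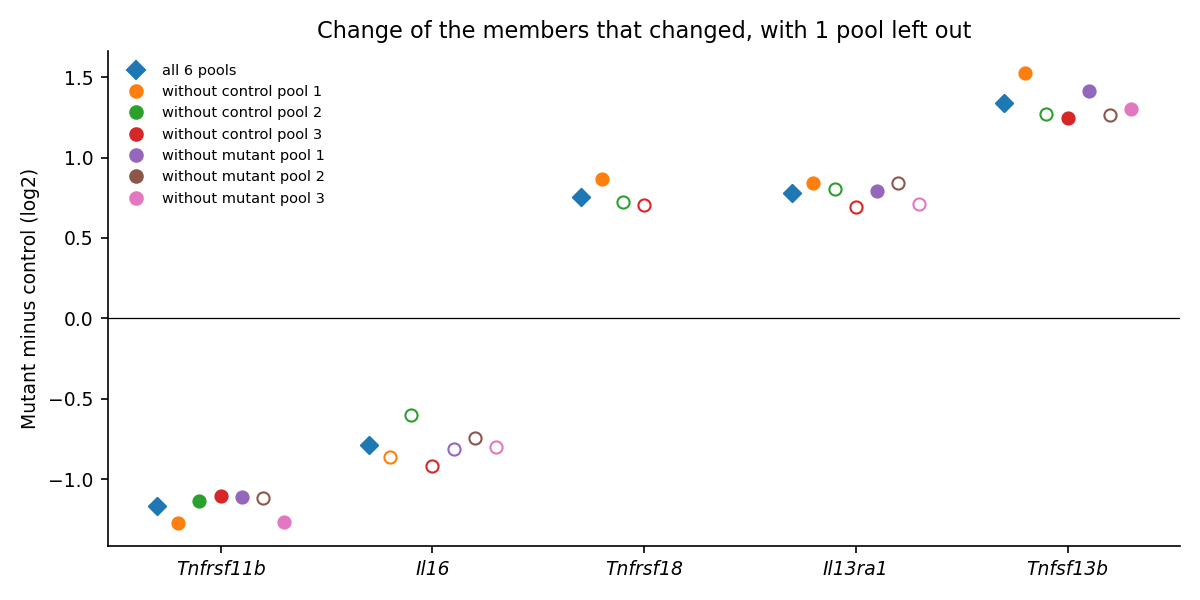
Log2 difference, mutant minus control (y axis), of the 5 members that changed, with all 6 pools (diamond) and with each pool left out (circles, filled where the adjusted p stayed below 0.05); Tnfrsf18 has no value without a mutant pool, and Tnfrsf11b stays between -1.27 and -1.10.

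Downstream of the receptors, 47 of 52 listed signalling genes were tested, with 2 that rose and 1 that fell (median 0.02). Among those that rose, Stat2, a transcription factor of interferon receptors, rose by 0.74 with a standard error of 0.16 (adjusted p 0.0491). Traf1, an adaptor of TNF receptors and itself an NF-kB target, fell by 0.61 with a standard error of 0.12 (adjusted p 0.0392). Of 32 listed cytokine target genes 23 were tested, with 0 that rose and 2 that fell in limma (median 0.13). An unadjusted p below 0.05 was found for 5 of the 23, against 25.2% of all genes. Saa3, an acute-phase protein induced by interleukin-1, was detected on 3 control arrays and 0 mutant arrays. It was at least 2.09-fold lower in the mutant pools (fitted difference -1.39 with a standard error of 0.21, adjusted p 0.02). Saa3 entered the test through the control arrays alone, so its p-value was conditioned on the group in which it is high. Timp1, a protease inhibitor induced by the interleukin-6 family, fell by 0.93 with a standard error of 0.09 (adjusted p 0.0078). Timp1 is also made by connective tissue. Of 6 fibroblast markers 2 fell, Col1a1 and Thy1, and 4 had an unadjusted p below 0.05, against 25.2% of all genes. The median of the 6 was -0.47, and 1 of them lay above 0, Dcn, with 0.11 (adjusted p 0.571). The part of these markers was not tested.

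Neutrophil markers, which respond to several of the cytokines above, spread widely. Of 8 listed genes 4 were tested, 0 passed in limma and 4 had an unadjusted p below 0.05, against 25.2% of all genes. Of these, 3 were higher with the mutant label and 1 lower. Among the 3, Retnlg was detected on 0 control arrays and 3 mutant arrays. It entered the test through the mutant arrays alone, so its p-value was conditioned on the group in which it is high. The summed level of the 4 was 14050 to 20123 in control and 11998 to 20453 in mutant pools. Most of that sum in the control pools was Ltf, which encodes lactoferrin and is also made by glands, with means of 13.94 and 13.51 and a difference of -0.43 (adjusted p 0.141). S100a9 gave 6.17, 5.05 and 5.72 in control and 7.64, 7.43 and 11.12 in mutant pools (adjusted p 0.107). Mutant pool 3, which stands apart here, also had the highest Csf3 value given above, which lies near background. The other mutant pools ranked differently in Csf3 and S100a9. A second Csf3 probe, detected on 0 arrays, gave 5.01, 4.74 and 4.93 in the mutant pools, highest in pool 1. The relation of Csf3 to these markers was not tested. Without mutant pool 3, 2 members passed.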

How the data were processed

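Raw intensities were used as deposited. Per the file headers, the authors' table without normalization gives for 25697 probes on 6 arrays a mean bead intensity with its bead standard error, a bead count and the p-value of detection, which moves in steps of 1 in 798. The authors' deposited log2 series values lie within 0.0206 of the values computed here. The authors' deposited table of fold changes (log2 ratio) and p-values was used as a check. Per the submitters' processing notes, R 3.2.3 and limma 3.26.9 were used.

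Intensities were corrected and quantile normalized with neqc (offset 16) in limma 3.58.1 under R 4.3.3. Kept were 14711 probes that 3 or more arrays detected at p under 0.05. Symbols were updated through a RefSeq table of GRCm38.p6 (of 18120, 12036 were current, 5218 updated and 866 kept as in the file; 13 member symbols changed), and the kept probe with the highest mean stood for each gene. Il17rd was read from a probe that carries another symbol in the file. Differences were tested with lmFit and eBayes over 10831 genes, two-sided, with Benjamini-Hochberg adjustment at 0.05, and all adjusted p-values of single genes come from that limma fit. The test was checked on simulated data. Tested members had 23 to 58 beads an array and a bead standard error of 2.01% to 6.96% of intensity, and the number of arrays limits the precision. Whether pools of a group are separate beyond the tracheas they hold is as the labels say, and p-values measure only the spread between them.

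Members, lists and alternatives were chosen with earlier results of these data known. Named were all members that passed, per role up to 3 others with the smallest p and the one with the highest mean, 15 classical cytokines, and members whose probes differ in sign. Members named as receptor or ligand partners of these (Tnfrsf11a, Lifr and those given only by detection) were named after their values were seen. The same holds for S100a8, S100a9, Ltf, Retnlg, Cd3g, Cd79b, Cd14, Cd163, Mrc1, Dcn and Tg. Some listed genes are counted but not reported by name. Pool numbers do not pair the groups: deviations of same-numbered pools correlated at -0.009, -0.085 and -0.103. Alternatives covered background correction, offset, normalization, filters, probe summary, variance model, a block for the pool number, and fits without 1 pool.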

Additional observations from a re-analysis of the deposited data

How the results depend on the processing

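Over 18 alternatives the 5 called members kept their sign wherever a value could be had, and of 21 named tested members 19 never changed sign. Tnfrsf19 turned to -0.0806 with the mean of kept probes, and Tnfsf11 ranged from -0.277 to 0.0249 with a pool left out. The number of members called was 8 under median scaling (6 higher, 2 lower, against 3 and 2; 5.90% of all genes called), 9 with eBayes trend and robust variance (10.03% of all genes called, against 5.52%), and ranged from 0 to 5 with each pool left out. With the pool number as a replicate block it was 1, Tnfrsf11b, among 1.14% of all genes called; the pool numbers do not pair the groups. Members kept numbered 127 with no filter and 51 to 54 with a pool left out. The median difference was 0.0177 under median scaling and 0.0117 with no filter, and ranged from -0.0484 to 0.0249 with a pool left out. Other named values gave 320 repeats on the same side of the threshold, 25 lost calls and 17 gained. Without background correction 14 of the 21 named differences shrank by over 1.5 times, as dim probes sit close to background. The cause of the other shifts was not tested. In the authors' deposited table, 90 probes of member genes are listed and 5 have an adjusted p below 0.05, those of Tnfsf13b, Tnfrsf11b, Il13ra1 and Tnfrsf18, while Il16 has 0.0565.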

Other observations

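Cytokine genes whose probes carry clone names in the file fall outside the choice by symbol and were named after their values were seen. Il33, an alarm signal stored in nuclei of epithelial and stromal cells, was detected on all 6 arrays, with log2 values of 6.75, 7.26 and 6.37 in control and 7.30, 7.62 and 8.35 in mutant pools. Every mutant pool lay above every control pool, with a difference of 0.96 and a standard error of 0.32 (adjusted p 0.123 in limma), which did not pass. Raw intensities were 229, 267 and 224 against 325, 356 and 507. Its receptor Il1rl1 was detected on 1 control array and 2 mutant arrays and differed by 0.31 with a standard error of 0.24 (adjusted p 0.473). Il34, a ligand of the receptor of Csf1, was detected on 2 control arrays and 0 mutant arrays and was not tested. Il20ra differed by -0.25 with a standard error of 0.16 (adjusted p 0.388).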
